A study of Homo sapiens with 10 samples.

Results

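The genes followed here are the antisense RNAs that were expressed in MCF10A cells, a non-transformed human breast epithelial line, together with the sense genes that they are named after. Members were chosen by their names and by their read counts. A gene was taken as an antisense RNA if its symbol ended in -AS and 1 digit, and as expressed if its reads summed to at least 40 over the 4 libraries of the first count table or to at least 60 over the 6 libraries of the second. In the first table this gave 318 of the 976 antisense symbols, among 26256 genes, and in the second 149 of 876, among 55736 genes. Of the symbols left out, 270 in the first table and 368 in the second had no read in any library. The nearest symbols to the limit were GAS6-AS1, RNF217-AS1 and SOX9-AS1, with 39 reads each and left out, and FOXC2-AS1 and RGMB-AS1, with 40 reads each and kept. In the second table FAM222A-AS1 and DDX11-AS1, with 59 reads each, fell just below the limit, and OR2A1-AS1 and PROSER2-AS1, with 60 reads each, just reached it. Since reads chose the members, their presence is not a result.

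Natural antisense RNAs are transcribed from the DNA strand opposite to a gene, usually a protein-coding one. Some start back to back with their sense gene, from a shared bidirectional promoter, and others run through the body or the far end of the sense gene. Known members of the class recruit chromatin complexes, pair with the sense transcript or carry small nucleolar RNAs in their introns, and for most the role is unknown. Many are short-lived in the nucleus, where the RNA exosome degrades them.

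RNA was compared in 2 designs. The first set MCF10A cells (2 libraries) against G12V cells (2 libraries), which are MCF10A cells infected with lentivirus carrying the HRas oncogene with the G12V mutation and a GFP vector and selected with hygromycin. The second set MCF10A cells given 10 µM Nutlin-3a for 4 h (3 libraries), a drug that frees p53 from MDM2, against the same cells given DMSO (3 libraries). All cells were grown in medium with horse serum, EGF, insulin, hydrocortisone and cholera toxin. Total counts ran from 21538593 to 23683975 per library in the first design and from 15453226 to 17378734 in the second. HRAS was higher in G12V cells by 3.05 on the log2 scale (SE 0.23, adjusted p = 0.00165), and under Nutlin-3a the p53 targets MDM2 and CDKN1A rose by 2.54 and 2.16. Of 9 basal epithelial markers, 7 were lower in G12V cells, but not all fell. Log2 fold changes of the 9 ran from -11.8 to 1.01, and 0 passed the test used below as higher. The summed level of the 9 was 2515 to 5506 CPM (read counts scaled to library size) in G12V cells against 9836 to 13782 in MCF10A. In G12V cells KRT14, KRT17, TP63 and CDH1 were near 0. Of 2 leukocyte markers tested 1, CD68, was higher, and their list summed to 13.786 to 13.999 CPM in MCF10A and 38.9 to 74.2 CPM in G12V cells. Of 4 fibroblast markers tested 1, LUM, was higher, and the list summed to 37.5 to 64.9 and 53.4 to 60.1 CPM. The part of these shifts in the results below was not tested, and in bulk RNA fewer cells of a type cannot be told apart from less RNA per cell.

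Most antisense RNAs were rare. Together the members took 0.182 to 0.220% of the reads in the first design and 0.137 to 0.162% in the second. In the first design the median member had 1.44 CPM, against 25.2 for all genes tested and 40.5 for the sense genes, and 22 members exceeded 10 CPM. Per kb of annotated exon, 227 of 275 members lay below their sense gene in every library and 22 lay above it in every library. The median member reached 8.60% of the level of its sense gene per kb, and 7.90% in the second design. The exon lengths are those of GENCODE, not of the annotation counted, and for 60 of the 275 members they exceed the whole span in the table, so that the level per kb of these members is understated. Over the 205 pairs in which neither gene exceeds its span the median was 8.59%, and over 111 such pairs of the second design 6.09%. LRRC75A-AS1, a host of small nucleolar RNAs, stood far above the rest, with 10947 and 23455 reads in MCF10A and 9759 and 16938 in G12V cells, which was 24.3 to 44.9% of all member reads. Its level differed more between replicates than between groups (log2 fold change -0.38, SE 0.44). The second table lists FAM211A-AS1, named after an older symbol of the same sense gene, over a longer span (chr17:16342351-16381992) that overlaps LRRC75A-AS1 (chr17:16342301-16345340), with 513 ± 17.3 CPM (SD, n = 3) under DMSO and 558 ± 44.6 CPM (SD, n = 3) under Nutlin-3a. The next in order in the first design were WAC-AS1 (158 CPM on average in MCF10A), FGD5-AS1 (134) and OIP5-AS1 (55.0), and none of these was differentially expressed between MCF10A and G12V cells. FGD5-AS1 had 134 ± 1.27 CPM in MCF10A and 100.4 ± 8.74 CPM in G12V cells (SD, n = 2 each), with no overlap (log2 fold change -0.41, SE 0.17, adjusted p = 0.204). FGD5 itself had no read in any of the 4 libraries. OIP5-AS1 is a conserved RNA known for binding a microRNA.

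The arrangement of each pair was read from the hg19 spans in the first table. Of the 318 members, 97 started upstream of the sense gene on the other strand without overlap, with a median of 124 bases between the starts (quartiles 65.0 and 290). In a further 93 pairs the starts overlapped, in 58 the ends overlapped, and 38 antisense genes lay wholly inside the sense gene. The rest comprised 12 pairs with the sense gene inside the antisense gene, 9 convergent pairs without overlap, 5 pairs over 10 kb apart, 5 members without a row for the sense gene and HNRNPU-AS1, which is listed on the strand of its sense gene. In the second table the same order held, with 51 divergent pairs, 42 with overlapping starts, 30 with overlapping ends and 13 inside the sense gene. Exons of both genes overlapped in GENCODE in 199 of 309 pairs and in 103 of 148 pairs of the second table. These counts, and the levels per kb above, include HNRNPU-AS1, which was given the same 22512 exon bases as HNRNPU, so its overlap has no meaning. The GENCODE models can be longer than those counted: 45 of 111 pairs whose spans lie apart in the first table share exon bases in GENCODE. The library kit did not mark the strand, so a read from shared bases cannot be assigned to the antisense or the sense gene.

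The 200 bases before the annotated start of each gene were read from hg19. A window was called CpG-rich at a GC content above 50% and a ratio of observed to expected CpG above 0.6. The arrangements differed widely in this feature, which the choice of members did not use. With a median of 124 bases between divergent starts, many divergent windows also hold the start of the sense gene. Their shares are thus in part those of the sense gene's own start. Among divergent members 87 of 97 windows (89.7%) were CpG-rich, against 26.3% of the 38 members inside the sense gene, 59.1% of those with overlapping starts and 67.2% of those with overlapping ends. Over all members the share was 66.0%, close to the 68.9% of all genes tested and above the 48.1% of all genes in the table. For the sense genes it was 72.3%. The motif CCGGAAG, bound by ETS factors, was found on either strand in 19.6% of the divergent windows. The share was 8.71% for the windows of the sense genes, 10.4% for genes tested and 7.07% for all genes. Members with overlapping ends were near the divergent ones, at 17.2%, and those with overlapping starts or inside the sense gene had 5.38% and 2.63%. For divergent members, genes tested and all genes, the shares of the SP1 motif GGGCGG were 67.0%, 56.8% and 41.6%. For CCAAT they were 25.8%, 28.8% and 28.5%, with 36.2% for overlapping ends. For TATAAA they were 2.06%, 4.68% and 8.35%. The letters TGANTCA, bound by AP-1, were in 0 of 97 divergent windows and in 13.2% of the windows of members inside the sense gene, against 3.51% of genes tested and 4.55% of all. CACCTG, bound by the SNAI and ZEB repressors, was in 10.3% of the divergent windows, 14.1% of genes tested and 15.3% of all. These are matches of letters, not sites of binding, and GGGCGG and CCGGAAG can share bases with CpG-rich sequence of any kind.

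**Figure D1:**
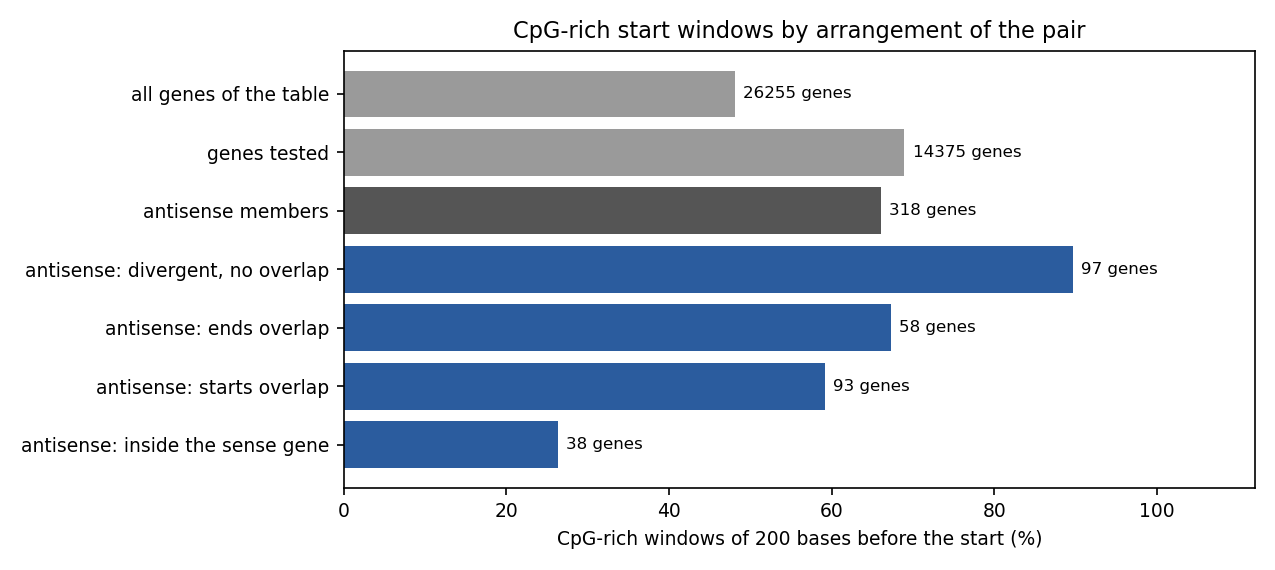
Share of genes whose 200 bases before the annotated start are CpG-rich (horizontal axis, percent), for all genes of the first table, the genes tested, all antisense members and the members of 4 arrangements, with the number of genes beside each bar. The share runs from 26.3% for antisense genes inside the sense gene to 89.7% for divergent ones.

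No annotated exon lies in the start windows of SH3PXD2A-AS1 (6 CpGs, 55.5% GC) and NR2F1-AS1 (11 CpGs, 54.0% GC), which are not shown. The following start windows, also without an annotated exon, are examples from pairs that carry the changes described below. All are 5′ to 3′ on the strand of the antisense RNA, end at the base before its start, and have each CpG in capitals. The first and second belong to antisense RNAs that moved with their sense gene, the third to an antisense RNA inside a sense gene that moved the other way, and the last to an antisense RNA downstream of its sense gene. The windows of all but the last lie in introns of the sense genes SERTAD4, SH3RF3 and ATP6V1B1.
SERTAD4-AS1: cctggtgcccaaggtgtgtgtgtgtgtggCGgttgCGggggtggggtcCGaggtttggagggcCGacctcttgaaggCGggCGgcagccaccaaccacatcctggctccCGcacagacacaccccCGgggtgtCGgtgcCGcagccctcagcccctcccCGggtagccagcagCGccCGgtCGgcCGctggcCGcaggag
SH3RF3-AS1: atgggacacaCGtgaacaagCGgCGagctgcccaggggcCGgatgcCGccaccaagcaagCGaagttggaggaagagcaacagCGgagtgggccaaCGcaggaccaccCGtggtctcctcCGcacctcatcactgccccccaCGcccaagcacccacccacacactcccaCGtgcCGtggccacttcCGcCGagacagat
ATP6V1B1-AS1: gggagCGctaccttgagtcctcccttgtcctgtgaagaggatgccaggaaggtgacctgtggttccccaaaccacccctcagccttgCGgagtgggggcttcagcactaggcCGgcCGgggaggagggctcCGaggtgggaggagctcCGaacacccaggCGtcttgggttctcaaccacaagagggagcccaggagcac
TMEM92-AS1: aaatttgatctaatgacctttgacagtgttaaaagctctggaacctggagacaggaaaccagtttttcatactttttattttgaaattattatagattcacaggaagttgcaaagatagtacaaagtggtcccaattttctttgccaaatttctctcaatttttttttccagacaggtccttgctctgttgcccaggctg
In hg19 they span chr1:210407467-210407666 and chr2:109746576-109746775, then chr2:71175742-71175941 and chr17:48365217-48365416, all on the minus strand. They hold 16, 15, 7 and 0 CpGs in turn, and their GC content is 72.5%, 66.0%, 64.5% and 36.0%. GGGCGG begins 122 bases before the start in the SERTAD4-AS1 window. The TMEM92-AS1 window has CCAAT 69 bases before the start.

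Few antisense RNAs passed the test between MCF10A and G12V cells. Of the 314 members tested, 10 were differentially expressed (DE, which required an adjusted p below 0.05 together with a log2 fold change beyond 0.5 in size), 6 of them higher and 4 lower in G12V cells. That is 3.18% of the members, where 11.0% of all 14376 genes tested were DE, 5.01% higher and 5.95% lower. Of the 280 sense genes tested, 37 were DE (13.2%), 15 higher and 22 lower. The median absolute log2 fold change was 0.41 for the members, 0.35 for the sense genes and 0.36 for all genes, and the median standard error was 0.43, 0.25 and 0.28. At an unadjusted p under 0.05 there were 42 members (13.4%) and 73 sense genes (26.1%), against 25.6% of all genes. The CPM of the groups did not overlap in 143 members (45.5%) and 159 sense genes (56.8%), against 54.8% of all genes. A further 6 members had log2 fold changes beyond 2 in size without being DE, 5 of them higher and 1 lower in G12V cells, with adjusted p from 0.0523 to 0.136. Of the members tested, 4 had at most 3 reads in every library of a group, and only the other group took them over the limit on reads. SH3PXD2A-AS1, TMEM92-AS1 and C1QTNF1-AS1 are among them. All of these named are among the 10 DE members. For such a member a large difference follows from the choice of members. Its size, adjusted p and counting interval are therefore a description only. The calls rest on MCF10A replicate 1: without it, with a single MCF10A library left, the edgeR calls were lost over all genes as well as among members and sense genes. When another library was left out the number of calls also moved, again over all genes as well as among the members.

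**Figure D2:**
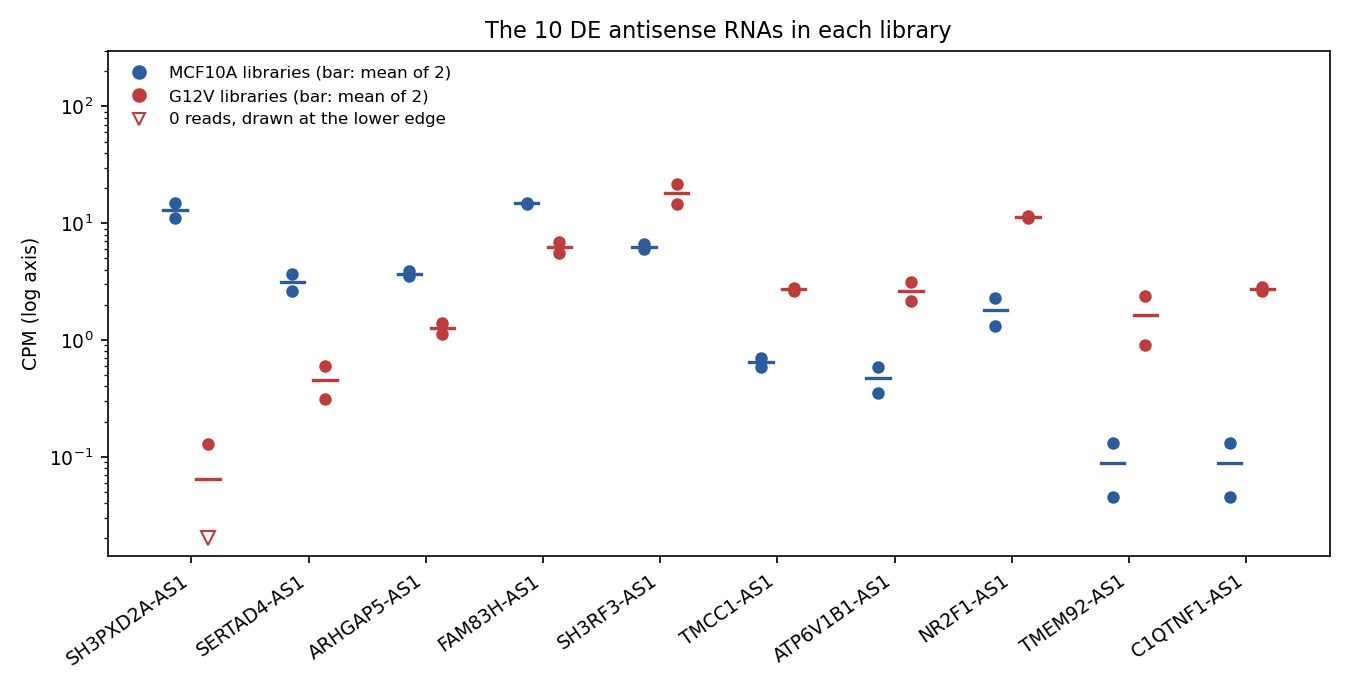
CPM (log axis) of the 10 DE antisense RNAs in each MCF10A library (blue) and G12V library (red), with bars at the mean of the 2 libraries of a group and an open triangle for a library with 0 reads. In each of the 10 the groups do not overlap, and SH3PXD2A-AS1 goes from a mean of 13.1 CPM in MCF10A to 0.0641 CPM in G12V cells.

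SH3PXD2A-AS1 (chr10:105506537-105515167, plus strand) fell most. It lies inside SH3PXD2A, the gene of TKS5, a scaffold protein of the podosomes and invadopodia with which cells degrade matrix. It had 330 and 254 reads in MCF10A and 3 and 0 in G12V cells. Both MCF10A libraries were far above both G12V libraries. The depth-scaled summed counts differed by 199-fold (95% exact counting interval 67.9 to 970, adjusted p = 0.00371). The MCF10A libraries alone took this RNA over the limit on reads, so these values are a description only. SH3PXD2A had 1741 and 2415 reads in MCF10A and 973 and 883 in G12V cells (log2 fold change -1.20, SE 0.21, adjusted p = 0.0202). Per kb of exon the antisense RNA stood at about the level of the sense gene in MCF10A, with a log2 ratio of 0.04 and -0.81, and at -5.90 in the G12V library that had a read. No exon of SH3PXD2A-AS1 overlaps one of SH3PXD2A in GENCODE.

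SERTAD4-AS1 (chr1:210404804-210407466, minus strand) fell together with SERTAD4, a gene of the SERTA domain family whose start it overlaps. The antisense RNA had 58 and 84 reads in MCF10A and 14 and 7 in G12V cells (log2 fold change -2.78, SE 0.48, adjusted p = 0.0195). SERTAD4 had 182 and 219 reads, then 43 and 27, a change of -2.55 (SE 0.37, adjusted p = 0.0112). The log2 ratio per kb of antisense to sense RNA was 0.67 and 0.94 in the MCF10A libraries and 0.70 and 0.38 in those of G12V cells, so the pair changed in step within the spread of the replicates. In GENCODE their exons share 177 bases, and reads there cannot be told apart.

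The other DE members that fell start back to back with their sense genes. FAM83H-AS1 (chr8:144816310-144828507, plus strand) starts 396 bases from FAM83H, which acts in enamel formation and keratin organization. MCF10A libraries had 329 and 334 of its reads and G12V libraries 131 and 156 (log2 fold change -1.24, SE 0.27, adjusted p = 0.0384). FAM83H fell by a similar amount, with 10675 and 10951 reads against 5620 and 4291 (log2 fold change -1.16, SE 0.22, adjusted p = 0.0235), although it was the more abundant by far. ARHGAP5-AS1 (chr14:32544625-32545905, minus strand) starts 590 bases from ARHGAP5. It had 85 and 80 reads in MCF10A and 33 and 25 in G12V cells, a change of -1.54 (SE 0.36, adjusted p = 0.0489). ARHGAP5 was not DE (-0.35, SE 0.26, adjusted p = 0.474), and its groups overlapped. In the table the spans share no bases, while the longer GENCODE models share 304 exon bases. The call for ARHGAP5-AS1 was lost when any single library was left out and without the filter on low counts.

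Of the 6 members that rose, NR2F1-AS1 (chr5:92745062-92907049, minus strand) had the partner with the largest rise. NR2F1 encodes COUP-TFI, an orphan nuclear receptor, and its start lies 11994 bases away on the other strand. NR2F1-AS1 had 29 and 52 reads in MCF10A and 269 and 249 in G12V cells (log2 fold change 2.64, SE 0.38, adjusted p = 0.0108). NR2F1 had 83 and 106 reads in MCF10A and 2028 and 1940 in G12V cells (4.36, SE 0.23, adjusted p = 0.000788). Both rose, but the antisense RNA by less: its log2 ratio per kb to the sense gene went from -3.89 and -3.40 to -5.29 and -5.34. In GENCODE their exons share 158 bases. SH3RF3-AS1 (chr2:109743784-109746575, minus strand) overlaps the start of SH3RF3, a ubiquitin ligase with SH3 domains. It had 145 and 137 reads in MCF10A and 340 and 488 in G12V cells (1.52, SE 0.30, adjusted p = 0.0288). SH3RF3 had 677 and 737, then 1482 and 2234 reads (1.37, SE 0.26, adjusted p = 0.0252). As in the SERTAD4 pair, the ratio moved little, from -0.33 and -0.54 to -0.23 and -0.30 on the log2 scale per kb, and here no exons are shared.

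In 3 further rising members the fitted change of the antisense RNA was larger than that of its sense gene. TMEM92-AS1 (chr17:48358942-48365216, minus strand) lies just past the end of TMEM92. It had 1 and 3 reads in MCF10A and 21 and 53 in G12V cells, a ratio of the depth-scaled sums of 18.1 (counting interval 6.76 to 68.0, adjusted p = 0.0274). TMEM92 rose with it, from 100 and 120 to 350 and 477 reads (log2 fold change 1.88, SE 0.30, adjusted p = 0.0150). C1QTNF1-AS1 (chr17:77015291-77023737, minus strand) overlaps the start of C1QTNF1, which encodes a secreted protein with a C1q domain. It had 1 and 3 reads in MCF10A and 66 and 59 in G12V cells, a ratio of 30.5 (counting interval 11.6 to 114, adjusted p = 0.00615). The G12V libraries alone took C1QTNF1-AS1 and TMEM92-AS1 over the limit on reads, so the values of both are a description only. C1QTNF1 had 54 and 95 reads in MCF10A and 150 and 301 in G12V cells, and this difference did not pass (log2 fold change 1.58, SE 0.48, adjusted p = 0.0977). TMCC1-AS1 (chr3:129612714-129627755, plus strand) starts 295 bases from TMCC1, a membrane protein of the endoplasmic reticulum. It had 13 and 16 reads in MCF10A and 62 and 63 in G12V cells (log2 fold change 2.07, SE 0.38, adjusted p = 0.0240), while TMCC1 had 675 and 654, then 497 and 707 reads, with overlapping groups (-0.17, SE 0.26, adjusted p = 0.752).

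In 1 pair both genes were DE in opposite directions. ATP6V1B1-AS1 (chr2:71169143-71175741, minus strand) lies inside ATP6V1B1, which encodes a subunit of the proton-pumping V-ATPase found in acid-secreting cells. The antisense RNA had 13 and 8 reads in MCF10A and 74 and 48 in G12V cells (log2 fold change 2.48, SE 0.47, adjusted p = 0.0259). ATP6V1B1 had 42 and 30 reads in MCF10A and 1 and 0 in G12V cells, a ratio of the depth-scaled sums of 73.8 (counting interval 12.8 to 2954, adjusted p = 0.00950). Per kb of exon the antisense RNA was below its sense gene in both MCF10A libraries (log2 ratios -0.47 and -0.69) and far above it in the G12V library with a sense read (7.43). The exons of this pair do not overlap in GENCODE.

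**Figure D3:**
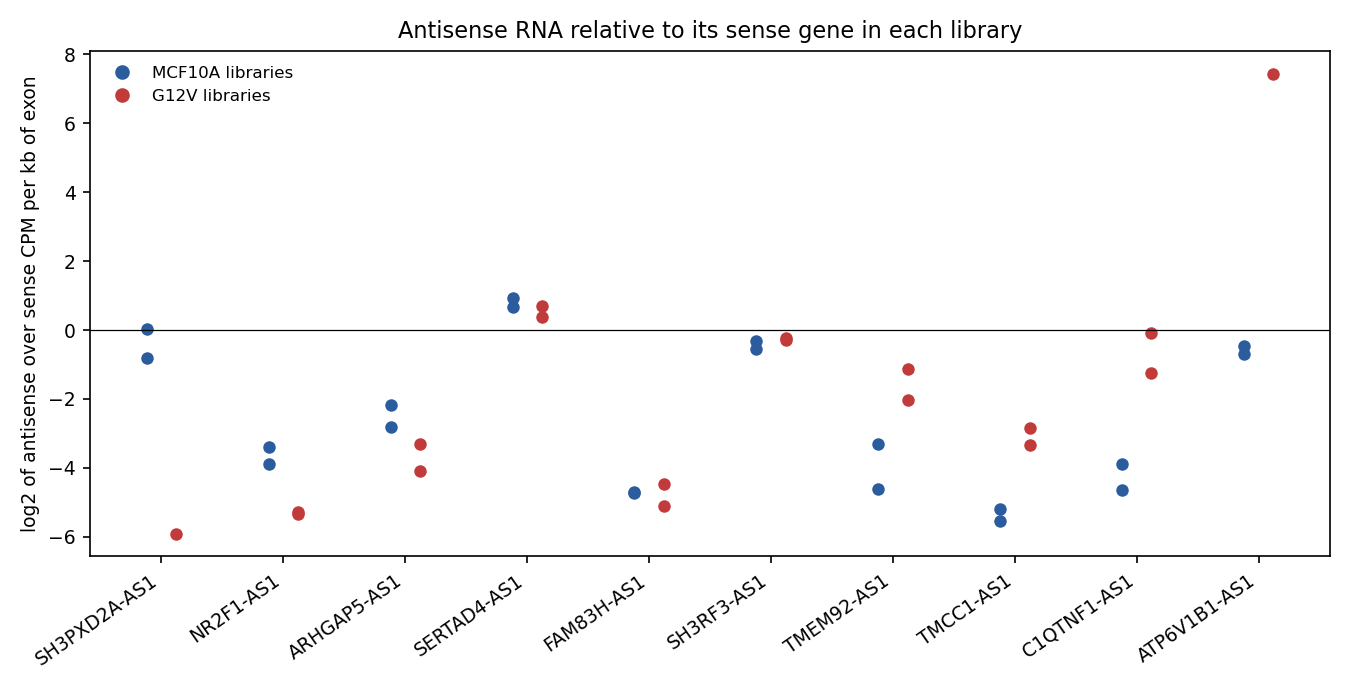
Log2 ratio of the antisense RNA to its sense gene, in CPM per kb of annotated exon (vertical axis), for the 10 pairs with a DE antisense RNA in each MCF10A library (blue) and G12V library (red), ordered by the difference of their log2 fold changes. A library with 0 reads of either gene has no point, and the groups overlap for SERTAD4-AS1 and FAM83H-AS1 while those of ATP6V1B1-AS1 lie furthest apart.

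Among the 279 pairs with both genes tested, both were DE in 7, the antisense RNA alone in 3 and the sense gene alone in 29. In 6 of the 7 pairs the directions were the same. In the 29 pairs with only the sense gene DE, 11 sense genes were higher and 18 lower, and the antisense RNA was on the other side of 0 in 10. Several of these, chosen after their values were seen, had antisense RNAs that were not DE beside sense genes with large changes. EPHA1, an ephrin receptor, went from 227 and 401 reads to 5 and 1, a ratio of the depth-scaled sums of 107 (counting interval 49.0 to 293, adjusted p = 0.00371). EPHA1-AS1 had 11 and 14, then 25 and 16 reads (log2 fold change 0.67, SE 0.46, adjusted p = 0.437). PRKCQ, the theta isoform of protein kinase C, went from 63 and 66 to 10 and 6, which was -3.03 on the log2 scale (SE 0.44, adjusted p = 0.0111). PRKCQ-AS1 had 75 and 88, then 87 and 55 reads, with overlapping groups (-0.24, SE 0.37, adjusted p = 0.762). LOXL1, an enzyme that crosslinks elastin, went from 163 and 195 to 38 and 33, with LOXL1-AS1 at 124 and 95, then 231 and 215.

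For LOXL1-AS1 the log2 fold change was 0.99 (SE 0.30, adjusted p = 0.0998), against -2.36 for LOXL1 (SE 0.33, adjusted p = 0.0103), and its groups did not overlap. Its log2 ratio per kb to LOXL1 went from -0.97 and -1.61 to 2.03 and 2.13. The opposite picture was seen for AFAP1, an actin-binding protein, which had 1289 and 1155 reads in MCF10A and 3196 and 2958 in G12V cells (log2 fold change 1.29), while AFAP1-AS1 had 30 and 26, then 12 and 11 (-1.31, SE 0.41, adjusted p = 0.108). AGAP2, a regulator of Arf GTPases, had 8 and 8, then 58 and 63 reads (2.87), and AGAP2-AS1 had 141 and 127, then 105 and 74 (-0.62, SE 0.33, adjusted p = 0.317). UGDH, which makes the sugar precursor of hyaluronan, had 1010 and 997, then 2199 and 2621 reads (1.23), while the divergent UGDH-AS1 had 972 and 993, then 1170 and 955 (0.08, SE 0.19, adjusted p = 0.867). Exons of LOXL1-AS1, AFAP1-AS1, AGAP2-AS1 and UGDH-AS1 overlap those of their sense genes in GENCODE. The differences between the antisense and the sense change of a pair were not tested.

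**Figure D4:**
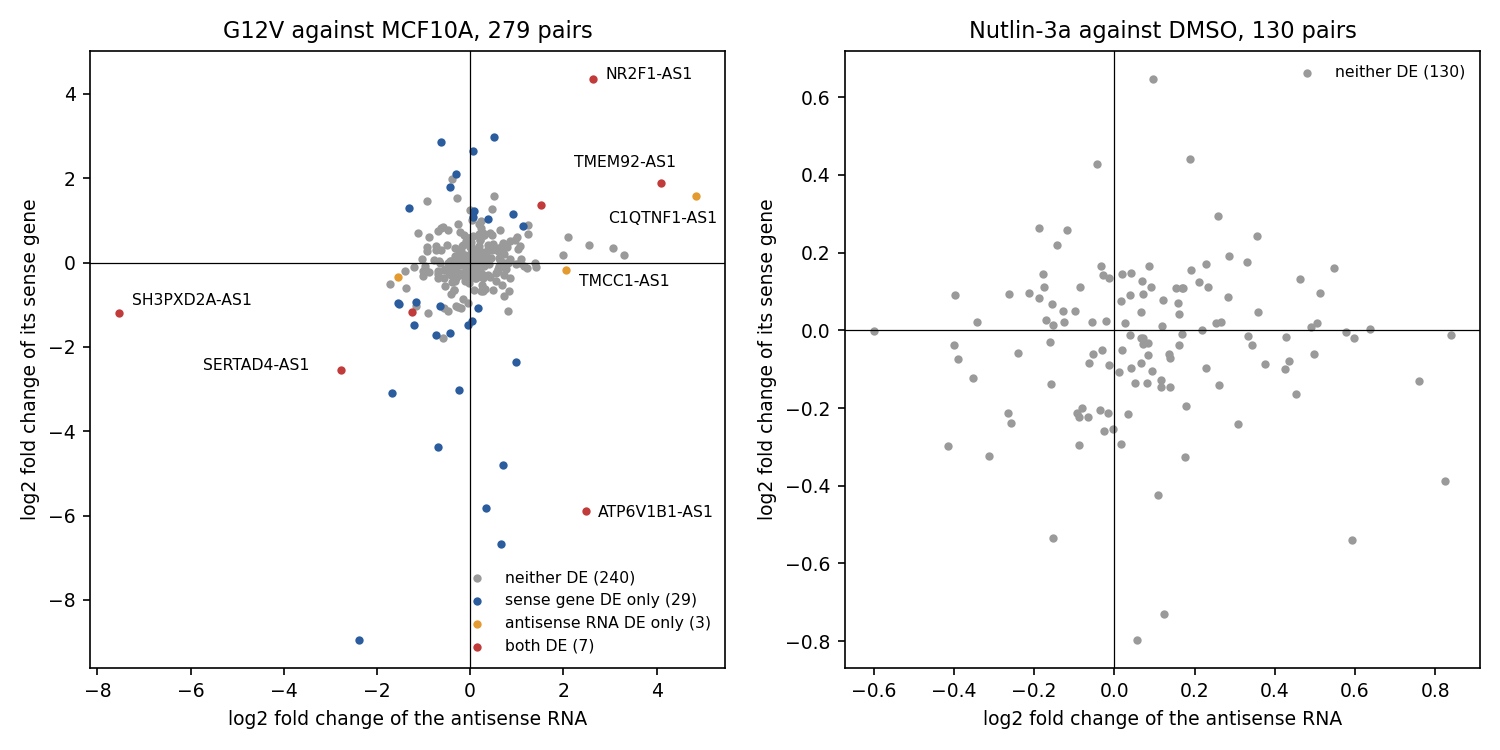
Log2 fold change of each antisense RNA (horizontal axis) against that of its sense gene (vertical axis), for 279 pairs in G12V against MCF10A cells (left) and 130 pairs in Nutlin-3a against DMSO (right), coloured by which gene of the pair is DE, with different scales in the panels. On the left 7 pairs have both genes DE, and ATP6V1B1-AS1 is the one of these in the lower right quadrant, and on the right no gene is DE.

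Across the pairs the changes went weakly together. In G12V against MCF10A cells 164 of 279 pairs (58.8%, 95% Wilson interval 52.9 to 64.4) had both log2 fold changes on the same side of 0, with 85 both higher and 79 both lower. Other pairs of opposite-strand genes that overlap or lie within 1 kb gave 56.6% of 2197, so the named pairs were close to the general level of neighbours. By arrangement the share was 60.6% of 94 divergent pairs (57.1% of the 784 other divergent pairs), 55.4% of 83 with overlapping starts (57.3% of 349) and 64.7% of 51 with overlapping ends (54.9% of 466). The limits on distance differ: divergent named pairs could lie up to 10 kb apart, the other divergent pairs only within 1 kb. Pearson's r across the 279 pairs was 0.23. This r and the Wilson intervals are a description only, since all pairs come from the same libraries and the genes of a pair can share reads. The intervals measure no spread between libraries. Under Nutlin-3a the share was 63 of 130 pairs (48.5%, 40.04 to 56.97), against 53.6% of 2529 other pairs, and r was 0.01.

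A list of antisense RNAs at loci of epithelial, mesenchymal, p53 and growth genes had 18 tested members between MCF10A and G12V cells, and by edgeR 0 of them were DE, with 3 at an unadjusted p under 0.05 and 0 DE by DESeq2. Of all genes tested 11.0% were DE and 25.6% had an unadjusted p under 0.05. ZEB1, a repressor of E-cadherin and driver of the mesenchymal state, had 150 and 107 reads in MCF10A and 887 and 1195 in G12V cells (log2 fold change 2.98, adjusted p = 0.00447). ZEB1-AS1, divergent from it with shared exon bases in GENCODE, had 38 and 64, then 55 and 92 reads, with overlapping groups (0.50, SE 0.45, adjusted p = 0.566). TP73, of the p53 family, had 90 and 366 reads in MCF10A and 13 and 9 in G12V cells (-4.38, SE 0.78, adjusted p = 0.0206). TP73-AS1 had 602 and 588, then 407 and 348 (-0.69, SE 0.21, adjusted p = 0.102). VIM-AS1, at the locus of the intermediate filament vimentin, changed by -1.11 on the log2 scale (adjusted p = 0.244), CDKN2B-AS1 by -0.10 (adjusted p = 0.907) and OIP5-AS1 by -0.06 (adjusted p = 0.888). The largest rises of the list were those of HOXB-AS1 (1.82, SE 0.49, adjusted p = 0.0715) and FOXP4-AS1 (1.23, SE 0.47, adjusted p = 0.171). The list was drawn up with earlier results of these data known.

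Related RNAs and genes were read in the same fits, with the same shares of all genes (11.0% DE, 25.6% at an unadjusted p under 0.05). Of the antisense RNAs named without a digit 11 were tested, and 1 was lower in G12V cells: HOXC13-AS, at a homeobox gene, at -2.77 on the log2 scale (SE 0.48, adjusted p = 0.0188). Of the RNAs named as intronic or overlapping 9 were tested, and 1 was higher: ALMS1-IT1, at 2.68 (SE 0.50, adjusted p = 0.0247). Among 21 genes of the nuclear exosome and its cofactors, which degrade many antisense RNAs, 0 were DE by edgeR and by DESeq2, with 2 at an unadjusted p under 0.05 and log2 fold changes from -0.23 to 0.79. Among 20 genes of double-stranded RNA and small RNA processing, such as DICER1 and ADAR, 0 were DE by edgeR and 1 by DESeq2, with 2 at an unadjusted p under 0.05 and changes from -0.73 to 0.85. Under Nutlin-3a 0 genes of these lists were DE by edgeR.

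Nutlin-3a left no antisense RNA past the threshold. Of 148 members tested 0 were DE by edgeR and 0 of 149 by DESeq2, and so were 0 of 130 sense genes by edgeR, where 0.17% of all 13529 genes tested were DE, 0.155% higher and 0.0148% lower. DESeq2 called 1 sense gene, and 87 of all 28673 genes. At an unadjusted p under 0.05 this unpaired fit had 2 members and 2 sense genes, against 3.42% of all genes. Log2 fold changes of the members ran from -0.60 to 0.84, with a median standard error of 0.31. The groups did not overlap in 12 members (8.11%), against 8.07% of all genes. The smallest p belonged to DYNLL1-AS1, inside the gene of a dynein light chain, with 5.42, 5.22 and 6.59 CPM under DMSO and 8.31, 7.63 and 7.83 CPM under Nutlin-3a (log2 fold change 0.46, SE 0.18, adjusted p = 0.9997). It was higher in each Nutlin-3a library than in each DMSO library, and DYNLL1 changed by 0.13 (SE 0.20). The next were TRAF3IP2-AS1 (0.76), ZSCAN16-AS1 (0.82), MAPKAPK5-AS1 (-0.35) and DPH6-AS1 (0.58), all at an adjusted p of 0.9997. TP73-AS1, at 24.5 ± 2.49 CPM under DMSO and 23.5 ± 1.33 CPM under Nutlin-3a (SD, n = 3 each), changed by -0.06 (SE 0.12).

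A sense gene passed once the pairing of these libraries was used. Libraries of the same number deviated together in this design, and once the replicate number entered the fit as a block, 0 members and 1 sense gene were DE, where 1.22% of all genes were. With the block 6 of 148 members and 15 sense genes had an unadjusted p under 0.05, where the fit without it had 2 and 2. The share of all genes at that p with the block is not given here. The sense gene that was DE was SERTAD4, named after its value was seen. It had 10.8, 9.88 and 11.96 CPM under DMSO and 6.16, 6.14 and 6.51 CPM under Nutlin-3a, with no overlap, and it changed by -0.80 on the log2 scale without the block (SE 0.16, adjusted p = 0.230) and by -0.79 with it (adjusted p = 0.00716). DESeq2 gave an adjusted p of 0.0219. SERTAD4-AS1, at 3.56 CPM on average under DMSO and 3.71 under Nutlin-3a, changed by 0.06 (SE 0.22). The log2 ratio per kb of SERTAD4-AS1 to SERTAD4 was 0.71, 0.61 and 0.79 under DMSO and 1.46, 1.48 and 1.74 under Nutlin-3a, where in G12V cells the ratio had stayed at 0.70 and 0.38 while both genes fell. The difference between the designs was not tested, and they differ in annotation, duration and treatment.

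The other members that were DE in G12V cells were in part missing from the second table. SH3PXD2A-AS1, ATP6V1B1-AS1 and TMEM92-AS1 have no row there, and TMCC1-AS1, with 58 reads, fell below the limit. ARHGAP5-AS1 (log2 fold change 0.55, SE 0.39), C1QTNF1-AS1 (0.36, SE 0.57), FAM83H-AS1 (-0.16, SE 0.25), NR2F1-AS1 (0.59, SE 0.37) and SH3RF3-AS1 (0.07, SE 0.31) all had an adjusted p of 0.9997 under Nutlin-3a.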

How the data were processed

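Poly(A) RNA was sequenced from 2 MCF10A, 2 G12V, 3 DMSO and 3 Nutlin-3a samples. The authors aligned reads to hg19 with TopHat, assigned them to genes with HTSeq and deposited the raw counts, without normalization, in 2 tables that list different genes. The annotations, the strand setting and the treatment of overlapping genes are not given in the sources used here. The study calls them biological replicates, and whether they were separate cultures is not given in the sources used here, so p-values measure the spread between these samples.

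Each comparison was fitted on its own table with edgeR 4.0.16 (R 4.3.3, limma 3.58.1): filterByExpr, TMM, the quasi-likelihood F-test and Benjamini-Hochberg adjustment over all genes tested. A prior count of 0.125 was used for log2 fold changes and TMM-scaled library sizes for CPM, and a standard error is the size of the change divided by the root of its F. Sense genes were matched by symbol, then by RefSeq synonym (313 of 318 and 148 of 149 members). Deposited starts count from 0 and are written here from 1. Exon lengths and overlaps are those of GENCODE v44 lifted to hg19, and start windows were read from the GRCh37 sequence. Counting intervals cover counting error only. An exact permutation test cannot go below a p of 0.333 with 2 against 2 libraries or of 0.1 with 3 against 3.

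In the Nutlin-3a design libraries of the same number deviated together from their group means (correlations 0.62, 0.60 and 0.64), so the numbers pair these libraries. Other pairs had -0.47 to -0.19. Deviations cancel within a group, so these negative values follow in part from the positive ones and are no separate evidence. No identical libraries were found. The members and gene lists were chosen with earlier results of these data known. The text names the DE members with their sense genes, the members with the highest CPM, list members that a sentence needs, the symbols at the limit and, under Nutlin-3a, the members with the smallest p. The alternatives were DESeq2 1.42.0, relative log expression factors, no filter, a filter requiring over 1 CPM in 2 libraries, the replicate block, a prior count of 2, 4 times the limit on reads, other sets of pairs and the omission of each library. The fits were tested on simulated data with genes of all levels. Python 3.11.15 with numpy 2.4.6, pandas 2.3.3, scipy 1.17.1 and matplotlib 3.10.9 was used for the rest.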

Additional observations from a re-analysis of the deposited data

How the results depend on the processing

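The 10 DE antisense RNAs and 37 DE sense genes in G12V against MCF10A cells compare with 10 and 37 under relative log expression factors. The counts were 9 and 34 with no filter, 9 and 38 when 2 libraries had to exceed 1 CPM, and 15 and 54 by DESeq2. In the same order, DE genes over all genes tested were 1563 of 14376, 1402 of 19774, 1559 of 13058 and 2303 of 19774. The members tested were 314, 318, 225 and 318. A limit on reads of 4 times the one used left 6 DE members of 127. Leaving out a library gave 0 to 17 DE members and 0 to 49 DE sense genes, the 0 without MCF10A replicate 1. That omission also took the HRAS call away (log2 fold change 3.15, adjusted p = 0.0775, range over omissions 2.89 to 3.19), and 25 of the named genes lost their call. With the replicate block the DE members were 44 (25 higher, 19 lower), where 28.9% of all genes were DE, the sense genes 90, the antisense RNAs without a digit 2, the exosome genes 1 and the genes of double-stranded RNA processing 4. In this design the same-number deviations correlated at 0.49, but with 2 pairs that does not show pairing. DESeq2 called 1 gene of double-stranded RNA processing, and omissions gave 0 to 2. The single intronic RNA was lost (0) under the CPM filter, and omissions gave 0 to 1 for it and for the RNAs without a digit.

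Under Nutlin-3a the DE sense genes were 0, and 1 with the replicate block and with DESeq2. DE members stayed at 0 under every alternative listed. The share of pairs on the same side of 0 ran from 56.3 to 62.5% over omissions in G12V cells and from 44.3 to 54.1% under Nutlin-3a. Signs turned only for values near 0, each when 1 library was left out. Log2 fold changes over omissions ran from -0.49 to 0.083 for TMCC1, from -0.57 to 0.029 for PRKCQ-AS1 and from -0.047 to 0.19 for UGDH-AS1 in G12V cells, and under Nutlin-3a DYNLL1 (-0.12 to 0.31), DPH6 (-0.11 to 0.11) and SERTAD4-AS1 (-0.070 to 0.18). The cause of these changes was not tested. Depth limits low members: the median member of the first design had 1.44 CPM.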
